A study of Mus musculus with 11 samples.

Results

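The measurements described here cover 10 genes of osteoclasts and of the RANKL signalling axis, chosen by name: Tnfsf11, Tnfrsf11a, Tnfrsf11b, Nfatc1, Oscar, Dcstamp, Ocstamp, Atp6v0d2, Acp5 and Ctsk. They are 10 of the 55421 genes counted, and all 10 passed the filter on low counts that left 18125 genes for testing. RNA came from articular cartilage of mouse knees, dissected 4 weeks after surgical destabilization of the medial meniscus (DMM), which makes the joint unstable and models osteoarthritis. Mice were of strain C57BL/6 and 14 weeks old. Of 11 libraries, 4 came from DMM knees of mice labelled c-FosDCh, 3 from DMM knees of c-FosWT mice and 4 from contralateral knees of c-FosWT mice. The label c-FosDCh was taken to mean loss of Fos from chondrocytes. Neither the driver of that loss nor the deleted part of the gene is given in the sources used here. Contralateral knees of c-FosDCh mice were not analysed here, so surgery and genotype cannot be separated in those mice. Each c-FosWT DMM library shares its animal with 1 contralateral library, and the remaining libraries come from different animals.

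Osteoclasts are the multinucleated cells that resorb bone and mineralised cartilage. They form when precursors of the monocyte and macrophage lineage receive the cytokine RANKL through its receptor RANK, while the secreted decoy receptor osteoprotegerin (OPG) binds RANKL and blocks it. RANK signalling acts through NF-kB, the AP-1 protein c-Fos and the transcription factor NFATc1, and mice that lack Fos in all cells form no osteoclasts. In the joint, osteoclasts lie in the subchondral bone under the cartilage, and chondrocytes are a known source of both RANKL and OPG.

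Fos RNA was on average no lower in c-FosDCh DMM knees than in the other groups. Its level was 19.4, 10.9, 29.5 and 33.0 CPM (read counts relative to library size, scaled by TMM) in c-FosDCh DMM knees, listed in the order of replicates here and throughout, 12.1, 14.1 and 9.01 CPM in c-FosWT DMM knees, and 17.1, 24.8, 22.0 and 15.7 CPM in contralateral knees. Since the deleted part is not known, these counts do not check the genotype. Gene counts per library ranged from 13593454 to 18280558, and a member had between 23 and 15787 counts in a library. Cartilage markers were present in all libraries (Acan between 474 and 9678 CPM), and so were markers of marrow, bone and skeletal muscle. As mean log2 CPM, muscle markers were highest in c-FosWT DMM replicate 1 (8.82) and contralateral replicate 2 (8.03). The next highest was c-FosDCh replicate 2 (5.78). The tissue was sequenced in bulk, so fewer cells of a type and less RNA per cell cannot be told apart in anything that follows.

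Set against gene length, as CPM per kilobase of merged exon (RPKM), the resorption enzymes stood far above the other osteoclast genes. In contralateral knees Ctsk, which encodes the collagen-degrading protease cathepsin K, was at 457 ± 124 RPKM, and Acp5, which encodes tartrate-resistant acid phosphatase (TRAP), was at 309 ± 75.1 RPKM (SD, n = 4). Tnfrsf11b followed at 84.1 ± 33.0, Nfatc1 at 24.5 ± 1.62 and Atp6v0d2 at 14.9 ± 3.64 RPKM. The low group held Tnfrsf11a at 5.20 ± 0.490, Oscar at 4.88 ± 1.16, Dcstamp at 3.63 ± 0.979, Tnfsf11 at 3.22 ± 1.13 and Ocstamp at 2.17 ± 0.657 RPKM. Neighbours within this low group lay within about an SD of each other, whereas Tnfrsf11b, Nfatc1 and Atp6v0d2 were each separated from the next gene by more than either SD. In c-FosDCh DMM knees the order changed at the top: Tnfrsf11b, at 177 ± 121 RPKM (n = 4), took the second place behind Ctsk at 293 ± 126 RPKM and level with Acp5 at 159 ± 64.0 RPKM. In c-FosWT DMM knees Tnfrsf11b was at 22.6 ± 13.1 RPKM (n = 3), close to Nfatc1 at 19.3 ± 2.0 and Atp6v0d2 at 18.1 ± 4.85 RPKM.

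**Figure D1:**
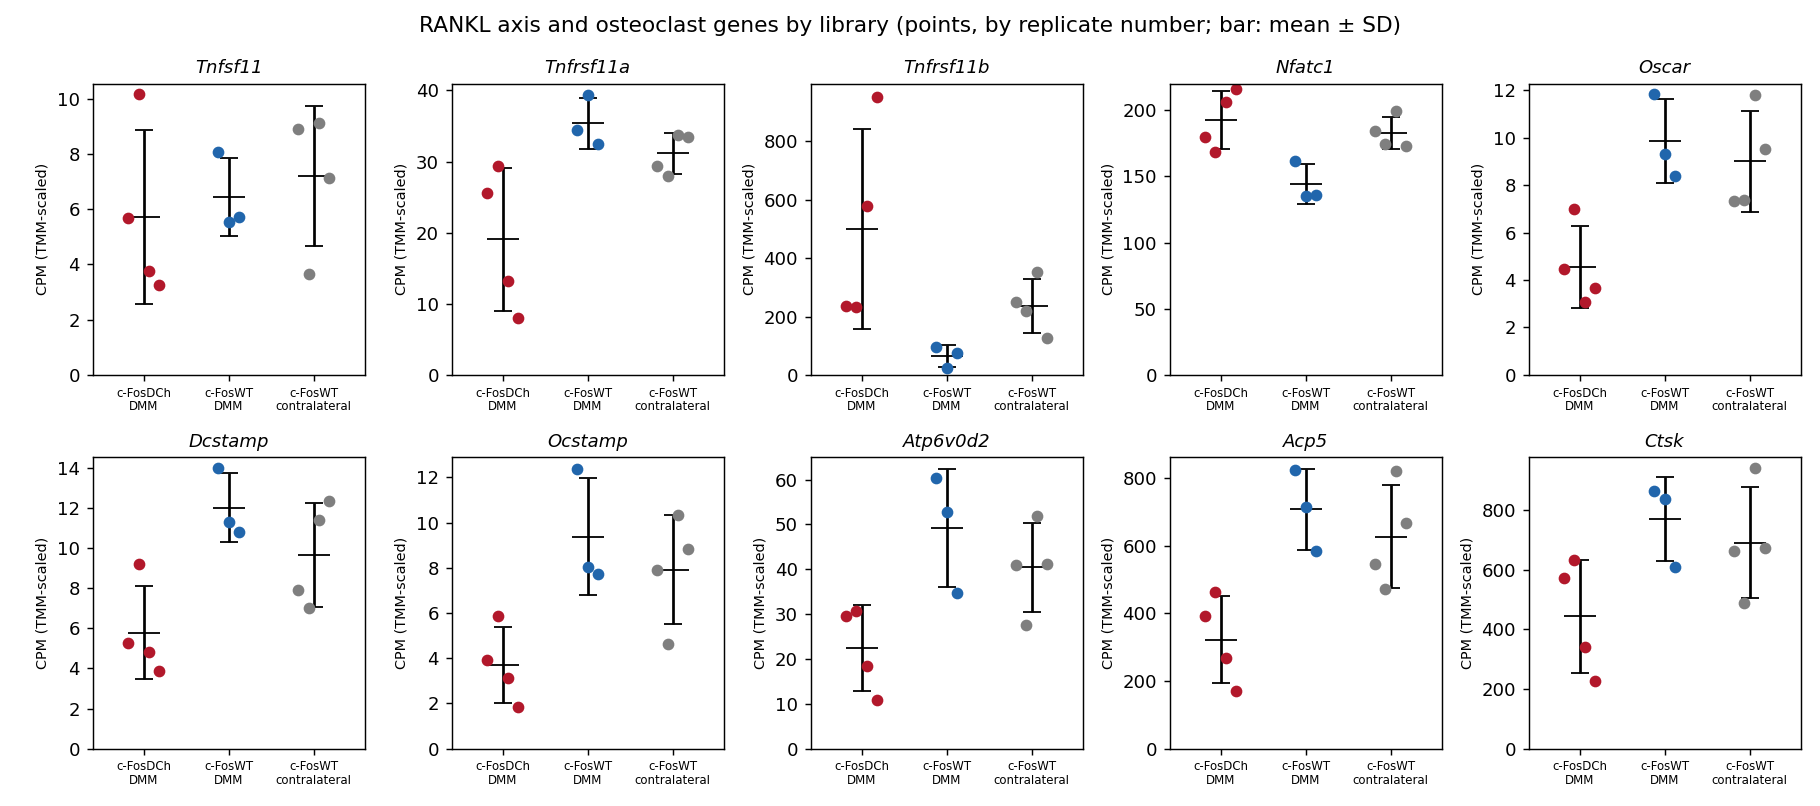
Levels of the 10 genes in every library, in CPM scaled by TMM on linear axes from 0; points are libraries ordered by replicate number, and bars are means ± SD. In c-FosDCh DMM knees the 6 osteoclast genes from Oscar to Ctsk sit low and Tnfrsf11b sits high, and replicates 3 and 4 of that group are the most extreme for Tnfrsf11b, Acp5, Ctsk, Atp6v0d2 and Tnfrsf11a.

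Promoter sequence was searched for 5 members, Tnfsf11, Tnfrsf11a, Oscar, Acp5 and Ctsk. The other members, Nfatc1 among them, were not searched, so the motif counts below do not cover them. The search used 7 windows of 300 bases from RefSeq (build GRCm38.p6). Each ran from 250 bases before to 50 bases after an annotated start. Acp5 has 3 such starts. Oscar, Acp5 and Ctsk are shown because these osteoclast genes moved together across the libraries and because their promoters are textbook targets of NFATc1. Capitals mark the NFAT core GGAAA or its reverse complement TTTCC, which overlap no other motif searched; the Acp5 window is that of its outermost start. Oscar lies on the minus strand (chr7:3616108-3616407), Acp5 on the minus strand (chr9:22135697-22135996) and Ctsk on the plus strand (chr3:95498960-95499259).
Oscar: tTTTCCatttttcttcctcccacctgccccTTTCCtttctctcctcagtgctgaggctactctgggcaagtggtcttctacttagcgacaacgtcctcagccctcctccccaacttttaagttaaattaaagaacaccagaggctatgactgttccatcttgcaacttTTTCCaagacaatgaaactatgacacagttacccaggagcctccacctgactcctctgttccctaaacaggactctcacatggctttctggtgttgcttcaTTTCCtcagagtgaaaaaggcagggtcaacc
Acp5: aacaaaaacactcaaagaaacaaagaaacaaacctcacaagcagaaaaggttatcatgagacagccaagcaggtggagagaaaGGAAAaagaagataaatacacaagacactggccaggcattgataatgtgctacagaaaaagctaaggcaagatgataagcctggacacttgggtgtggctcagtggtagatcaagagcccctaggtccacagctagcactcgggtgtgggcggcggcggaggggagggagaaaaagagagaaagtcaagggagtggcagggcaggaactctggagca
Ctsk: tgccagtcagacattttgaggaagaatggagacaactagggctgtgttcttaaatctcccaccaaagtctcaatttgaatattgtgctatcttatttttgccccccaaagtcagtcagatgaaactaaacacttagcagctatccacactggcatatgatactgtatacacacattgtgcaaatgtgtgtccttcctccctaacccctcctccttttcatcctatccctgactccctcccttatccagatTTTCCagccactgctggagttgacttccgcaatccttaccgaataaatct
The Oscar window held 4 NFAT cores, a number reached by 2.65% of all 32851 mouse promoter windows of this length, while the Acp5 and Ctsk windows shown held 1 each. At least 1 core was found in 6 of the 7 windows of these 5 members, against 61.3% of all windows. The AP-1 site TGANTCA was in 0 of the 7 windows and in 7.81% of all windows. CANGTG, a restricted form of the E-box, was in 5 of 7 windows and in 44.9% of all. Other forms of the E-box were not searched. Both strands were searched. These letter matches describe the windows only and say nothing about binding.

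In the comparison of c-FosDCh DMM with c-FosWT DMM knees, which asks how the genotype bears on cartilage after surgery, OPG and Nfatc1 rose, and 4 osteoclast genes (Oscar, Dcstamp, Ocstamp and Acp5) fell to somewhat under 0.5 times their c-FosWT DMM level. By edgeR's quasi-likelihood test with Benjamini-Hochberg adjustment over all genes, 2 of the 10 members were called higher, where 10.6% of all tested genes were, and 4 were called lower, where 3.79% were. Groups did not overlap for 2 members above, a pattern seen in 17.2% of genes, and for 6 below, a pattern seen in 15.8%. The median log2 fold change was -0.97 over the members and -0.01 over all tested genes. This comparison and the next share the c-FosWT DMM libraries, so they are not independent.

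Tnfrsf11b, the gene of the decoy receptor OPG (minus strand, chr15:54250619-54278484, GRCm38), had the largest log2 fold change of the 10. It was at 237, 234, 577 and 951 CPM in c-FosDCh DMM knees and at 94.2, 22.6 and 74.5 CPM in c-FosWT DMM knees. All c-FosDCh libraries lay above all c-FosWT DMM libraries, and c-FosDCh replicates 3 and 4 stood well above replicates 1 and 2. Its log2 fold change was 2.97 ± 0.66 (SE; adjusted p = 0.0332). Tnfsf11, the gene of the ligand RANKL (minus strand, chr14:78277445-78308043), did not follow. It was at 5.69, 10.2, 3.75 and 3.26 CPM in c-FosDCh DMM knees and at 8.08, 5.55 and 5.73 CPM in c-FosWT DMM knees. The groups overlapped on both sides, and the log2 fold change was -0.17 ± 0.42 (adjusted p = 0.774). Between 41 and 175 counts stood behind each c-FosDCh value of Tnfsf11, and the spread between those libraries was wider than the difference between the groups.

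Tnfrsf11a, which encodes the receptor RANK on osteoclast precursors, had 25.6, 29.3, 13.2 and 8.02 CPM in c-FosDCh DMM knees and 34.4, 39.4 and 32.4 CPM in c-FosWT DMM knees. All c-FosDCh libraries were below, but the log2 fold change of -0.89 ± 0.35 missed the threshold (adjusted p = 0.0950). Nfatc1, whose product drives the osteoclast programme but is made in many cells, was at 180, 168, 206 and 216 CPM in c-FosDCh DMM knees and at 162, 135 and 136 CPM in c-FosWT DMM knees. It differed in the direction opposite to its osteoclast targets, with a log2 fold change of 0.42 ± 0.12 (adjusted p = 0.0470). The increase of Nfatc1 depended on the scaling: with library totals in place of TMM it was 0.23 (adjusted p = 0.143).

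Oscar encodes a collagen-binding receptor that costimulates osteoclast precursors through the Fc receptor gamma chain. It was at 4.45, 6.97, 3.07 and 3.65 CPM in c-FosDCh DMM knees, against 11.8, 9.33 and 8.40 CPM in c-FosWT DMM knees. Every c-FosDCh library was below every c-FosWT DMM library, with a log2 fold change of -1.11 ± 0.29 (adjusted p = 0.0369). Dcstamp and Ocstamp encode membrane proteins needed for the fusion of precursors into multinucleated cells. Dcstamp had 5.26, 9.18, 4.82 and 3.89 CPM in c-FosDCh DMM knees and 14.0, 11.3 and 10.8 CPM in c-FosWT DMM knees, a log2 fold change of -1.05 ± 0.30 (adjusted p = 0.0445). Ocstamp had 3.94, 5.87, 3.13 and 1.83 CPM in c-FosDCh DMM knees and 12.4, 8.02 and 7.73 CPM in c-FosWT DMM knees, a log2 fold change of -1.33 ± 0.37 (adjusted p = 0.0434). Neither fusion gene had overlapping groups.

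Atp6v0d2, a subunit of the proton pump that also takes part in fusion, was at 29.6, 30.7, 18.4 and 10.9 CPM in c-FosDCh DMM knees and at 60.3, 52.7 and 34.6 CPM in c-FosWT DMM knees. Its log2 fold change of -1.13 ± 0.35 was as large as those of the genes called, but it stayed just past the threshold (adjusted p = 0.0527). Acp5 (minus strand, chr9:22126727-22135711) had 391, 463, 267 and 170 CPM in c-FosDCh DMM knees and 825, 716 and 585 CPM in c-FosWT DMM knees. The groups were apart, and its log2 fold change was -1.13 ± 0.32 (adjusted p = 0.0429). Acp5 shares 137 exon bases with the antisense gene 6530413G14Rik, and since the strand setting of the deposited counts is not stated, its counts carry that uncertainty. Ctsk (plus strand, chr3:95499256-95509362) was at 572, 633, 343 and 227 CPM in c-FosDCh DMM knees and at 866, 837 and 608 CPM in c-FosWT DMM knees. The highest c-FosDCh library reached into the c-FosWT DMM range, and the log2 fold change was -0.80 ± 0.34 (adjusted p = 0.115).

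**Figure D2:**
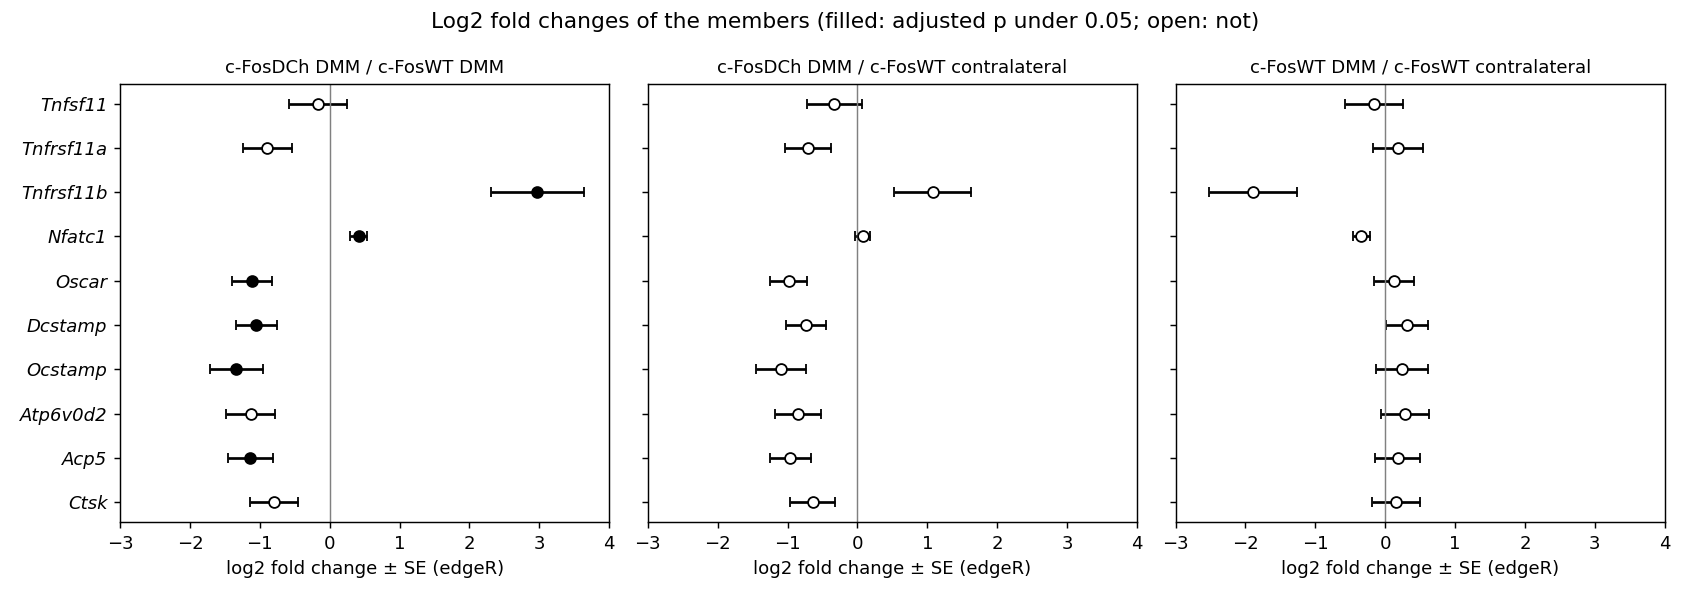
Log2 fold changes of the 10 genes with SE (horizontal axes, edgeR) in the 3 comparisons, the first-named group over the second; filled points had an adjusted p under 0.05. The only filled points, 6 of 10, are in the comparison of c-FosDCh DMM with c-FosWT DMM knees, with Tnfrsf11b at 2.97 and Ocstamp at -1.33 at its ends.

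These calls sat close to the threshold and depended on single libraries. DESeq2 called 8 members (2 higher, 6 lower), at a background of 29.7% of genes. The limma test called 7, and its share of all genes is not given here. When 1 library was omitted, the count was 0 if that library was c-FosDCh replicate 3 or 4, c-FosWT DMM replicate 2 or 3, or contralateral replicate 1 or 2. Omitting c-FosWT DMM replicate 1 left 1 member called, contralateral replicate 3 left 2 and contralateral replicate 4 left 5. With c-FosDCh replicate 1 omitted the count was 7, and with c-FosDCh replicate 2 omitted it was 8. Over the same 11 omissions the number of all genes called ran from 0 to 4626. The number for each omission is not given here, so these counts are not a result about the members. Without both c-FosDCh replicates 3 and 4, 0 members were called, with log2 fold changes of 1.88 for Tnfrsf11b, -0.74 for Acp5 and -0.79 for Oscar.

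Macrophage, erythroid, granulocyte and endothelial markers had negative log2 fold changes throughout, as the osteoclast genes did, though of these lists edgeR called only erythroid genes. The 9 macrophage markers summed to between 73.1 and 357 CPM in c-FosDCh DMM knees and to between 416 and 486 CPM in c-FosWT DMM knees. All 8 of these markers that could be tested had negative log2 fold changes, 0 were called by edgeR, and 5 did not overlap between groups. Erythroid markers summed to between 480 and 4498 CPM in c-FosDCh DMM knees and to between 7983 and 13134 CPM in c-FosWT DMM knees, with 5 of 12 called lower. Granulocyte markers summed to between 312 and 11085 CPM in c-FosDCh DMM knees and to between 7593 and 14279 CPM in c-FosWT DMM knees, with 0 of 12 called and all 12 overlapping between groups. Endothelial markers summed to between 65.7 and 295 CPM in c-FosDCh DMM knees and to between 443 and 495 CPM in c-FosWT DMM knees, with 0 of 6 called and 4 not overlapping. Cartilage markers were mixed. They summed to between 18831 and 67239 CPM in c-FosDCh DMM knees and to between 5585 and 14809 CPM in c-FosWT DMM knees, sums in which Prg4, Col2a1 and Acan weigh most. Of 10 cartilage markers 4 were called higher (Sox9, Acan, Prg4 and Comp). Hapln1 (1.81), Col2a1 (0.76) and Col11a2 (0.19) had positive log2 fold changes that did not pass. Matn3 (-5.04 ± 1.67, all c-FosDCh libraries below), Col9a1 (-1.37) and Cnmd (-0.50) had negative log2 fold changes that did not pass. The mean log2 CPM of the cartilage markers overlapped, at 8.16, 8.50, 9.47 and 9.30 in c-FosDCh DMM knees and 9.14, 7.44 and 8.36 in c-FosWT DMM knees. Osteoblast and osteocyte markers summed to between 2446 and 5864 CPM in c-FosDCh DMM knees and to between 1508 and 2386 CPM in c-FosWT DMM knees. That sum was carried by Ibsp (log2 fold change 1.48 ± 0.45, not called) and Alpl (1.24 ± 0.36, called higher). Sost (0.81), Mepe (0.70) and Sp7 (0.07) were also positive and were not called. Bglap (-0.91), Bglap2 (-0.77), Phex (-0.62) and Dmp1 (-0.20) were negative and not called. The mean log2 CPM of this list was 6.86 ± 1.08 in c-FosDCh DMM knees and 6.94 ± 0.19 in c-FosWT DMM knees (SD, n = 4 and 3). No marker of these lists was at 0 in all libraries of a group.

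Relative to macrophage markers, the osteoclast genes of c-FosDCh DMM knees overlapped those of c-FosWT DMM knees. The mean log2 CPM of the 6 osteoclast genes from Oscar to Ctsk minus that of the macrophage markers was -0.21, 0.53, 0.75 and 1.19 in c-FosDCh DMM knees, and 0.76, 0.29 and 0.08 in c-FosWT DMM knees. The c-FosDCh values reached both below and above those of c-FosWT DMM knees. Relative to osteoblast and osteocyte markers there was no overlap, though c-FosDCh replicate 4 lay close to the c-FosWT DMM values. The same difference was -2.56, -2.16, -2.91 and -1.31 in c-FosDCh DMM knees and -1.07, -1.13 and -1.25 in c-FosWT DMM knees. With a marrow score, averaged in log2 CPM over erythroid and granulocyte markers, as a covariate, 0 members and 0 genes were called. The log2 fold changes then were -0.85 for Oscar, -0.62 for Acp5, -0.27 for Ctsk and 1.44 for Tnfrsf11b. With the osteoblast and osteocyte score as a covariate instead, 9 members were called. The share of all genes called in that fit is not given here, so the count is not a result about the members. The part that the amount of marrow, macrophages or cartilage in a sample plays in these differences was not tested.

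**Figure D3:**
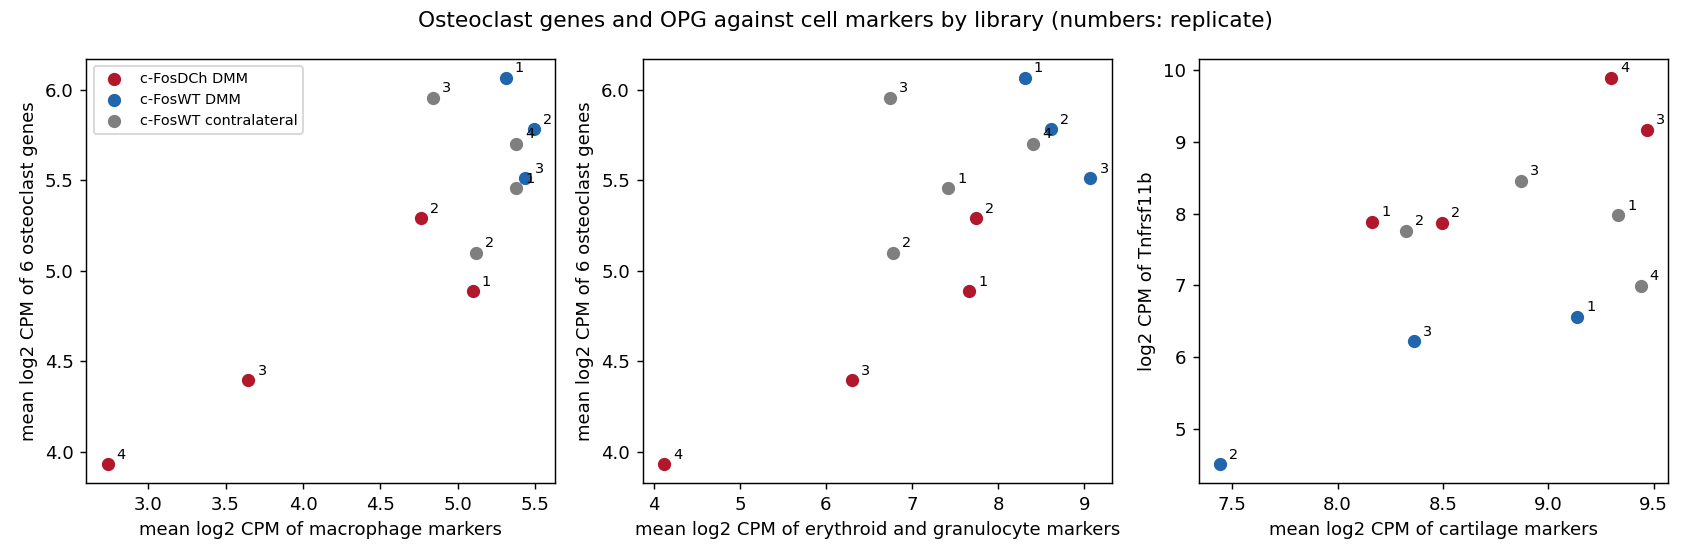
Mean log2 CPM of the 6 osteoclast genes (Oscar, Dcstamp, Ocstamp, Atp6v0d2, Acp5 and Ctsk) against that of macrophage markers (left) and of erythroid and granulocyte markers (middle), and log2 CPM of Tnfrsf11b against the mean log2 CPM of cartilage markers (right). Each point is 1 library with its replicate number; c-FosDCh replicates 3 and 4 lie at the bottom left of the left and middle panels and at the top right of the right panel.

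Other genes of the pathway passed about as often as genes at large in the same comparison. Over the 6 pathway lists, 5 of 53 tested genes (9.43%) were called higher and 2 (3.77%) lower, against 10.6% and 3.79% of all genes, so the genes named next are single values and not a result about the pathway. Of 17 genes of RANK signalling, 3 were called higher and 0 lower: Ppp3ca, a catalytic subunit of the phosphatase calcineurin that activates NFATc1, at 0.98 ± 0.23 (log2 fold change; adjusted p = 0.0332), Lgr4, an alternative receptor for RANKL, at 0.93 ± 0.25 (adjusted p = 0.0391), and Camk4, a calcium-dependent kinase, at 1.16 ± 0.33 (adjusted p = 0.0458). Ppp3ca averaged 376 ± 96.7 CPM in c-FosDCh DMM knees and 191 ± 26.1 CPM in c-FosWT DMM knees (SD, n = 4 and 3). The list's median log2 fold change was 0.02. Of the CSF1 axis, which keeps precursors alive, 0 of 3 genes were called. Its receptor gene Csf1r was at 188, 194, 86.4 and 55.7 CPM in c-FosDCh DMM knees and at 238, 302 and 254 CPM in c-FosWT DMM knees (log2 fold change -1.01 ± 0.36, adjusted p = 0.0759). The ligand gene Csf1 had -0.53 ± 0.25 (adjusted p = 0.140).

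Among the ITAM costimulation genes, which relay the signals of receptors such as Oscar, 0 of 6 were called and all 6 log2 fold changes were negative, with a median of -1.09. Siglec15, an ITAM-coupled lectin of osteoclasts, had -1.10 ± 0.41 (adjusted p = 0.0804), and Fcer1g, the Fc receptor gamma chain, had -1.42 ± 0.58 (adjusted p = 0.104). Of 12 genes of the resorption machinery, 11 had negative log2 fold changes (median -0.55), and 1 was called. This was Car2, a carbonic anhydrase that supplies protons in osteoclasts and is also abundant in red cells. Car2 had 85.5, 161, 56.2 and 20.4 CPM in c-FosDCh DMM knees and 345, 352 and 472 CPM in c-FosWT DMM knees (log2 fold change -2.27 ± 0.66, adjusted p = 0.0467).

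Of 6 inhibitors of osteoclast formation, Bcl6 rose and Tnfaip3 fell. Bcl6, a repressor of osteoclast genes, was at 135, 123, 285 and 364 CPM in c-FosDCh DMM knees and at 85.0, 57.7 and 77.5 CPM in c-FosWT DMM knees (log2 fold change 1.63 ± 0.38, adjusted p = 0.0337). Tnfaip3, which restrains NF-kB, averaged 22.7 ± 1.43 CPM in c-FosDCh DMM knees and 29.9 ± 3.76 CPM in c-FosWT DMM knees (n = 4 and 3; log2 fold change -0.40 ± 0.11, adjusted p = 0.0401). Of 9 tested inducers of RANKL, 1 was called. Ptgs2, which encodes the prostaglandin-forming enzyme COX-2, was at 4.16, 14.2, 20.3 and 6.35 CPM in c-FosDCh DMM knees and at 4.57, 1.20 and 1.84 CPM in c-FosWT DMM knees. The groups overlapped, and its log2 fold change was 2.15 ± 0.59 (adjusted p = 0.0413).

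Between DMM and contralateral knees of c-FosWT mice, which shows the response to surgery, no member passed by edgeR. Of all genes, 0% were called (lowest adjusted p = 0.182; 3605 genes had an unadjusted p under 0.05), and of the members 2 had an unadjusted p under 0.05, Tnfrsf11b and Nfatc1. Tnfrsf11b was at 94.2, 22.6 and 74.5 CPM in DMM knees and at 251, 217, 352 and 127 CPM in contralateral knees. All DMM values lay below all contralateral values, with a log2 fold change of -1.89 ± 0.63 (adjusted p = 0.184). Nfatc1 was at 162, 135 and 136 CPM in DMM knees and at 185, 175, 199 and 173 CPM in contralateral knees, also without overlap (log2 fold change -0.34 ± 0.12, adjusted p = 0.191). Such complete separation downwards was seen in 13.1% of all genes. DESeq2 called 1 member, Tnfrsf11b (log2 fold change -1.87, adjusted p = 0.0370), at a background of 5.67% of genes, and limma called 0.

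The 6 osteoclast genes from Oscar to Ctsk overlapped between DMM and contralateral knees. Their log2 fold changes ran from 0.13 ± 0.28 for Oscar to 0.31 ± 0.30 for Dcstamp. Acp5 was at 825, 716 and 585 CPM in DMM knees and at 547, 473, 822 and 668 CPM in contralateral knees (log2 fold change 0.18 ± 0.32). Ctsk was at 866, 837 and 608 CPM in DMM knees and at 662, 488, 942 and 673 CPM in contralateral knees (log2 fold change 0.16 ± 0.34). For both enzymes, contralateral replicate 3 was as high as the highest DMM library. Tnfsf11 had 8.08, 5.55 and 5.73 CPM in DMM knees and 8.90, 3.64, 9.13 and 7.13 CPM in contralateral knees (log2 fold change -0.16 ± 0.42), and Tnfrsf11a had 0.18 ± 0.35. In the other pathway lists 0 genes were called in this comparison. Those with the smallest p were Camk4 (log2 fold change -1.02) and Ppp3ca (-0.59) of RANK signalling, Car2 (1.59) and Itgav (-0.33) of the resorption machinery, Bcl6 (-0.93) and Tnfaip3 (0.24) of the inhibitors, Pth1r (-0.47) and Ptgs2 (-1.41) of the inducers of RANKL, Plcg2 (0.57) and Syk (0.87) of ITAM costimulation, and Csf1r (0.26) and Il34 (-0.17) of the CSF1 axis. Their adjusted p values ran from 0.182 to 0.751. Of the 12 resorption machinery genes, 10 had positive and 2 negative log2 fold changes, with 0 called. Their median was 0.35, against -0.01 over all tested genes. Erythroid markers differed the same way as Car2, at sums of 7983 to 13134 CPM in DMM knees and 2348 to 6958 CPM in contralateral knees; their part in the Car2 value was not tested.

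The 3 animals with both knees disagreed on the osteoclast genes. In the first animal, DMM minus contralateral differences in log2 CPM were positive for 6 of 6 osteoclast genes, from 0.39 for Ctsk to 0.82 for Dcstamp. In the second they were positive for 6 of 6, from 0.34 for Oscar to 0.93 for Atp6v0d2. In the third they were positive for 0 of 6, from -0.25 for Atp6v0d2 to -0.15 for Ctsk. OPG and Nfatc1 differed one way in every animal: Tnfrsf11b by -1.41, -3.26 and -0.77, and Nfatc1 by -0.19, -0.37 and -0.35. Tnfsf11 differed by -0.14, 0.59 and -0.31, and Tnfrsf11a by 0.23, 0.49 and -0.05. Several marker lists, as mean log2 CPM, also differed one way in every animal: cartilage markers by -0.19, -0.88 and -1.08, hypertrophic chondrocyte markers by -0.15, -1.36 and -0.72, osteoblast and osteocyte markers by -0.48, -0.56 and -0.15, and erythroid and granulocyte markers together by 0.89, 1.84 and 0.67. Endothelial markers differed by 0.56, 0.49 and -0.29, the signs of the osteoclast genes, and skeletal muscle markers by 4.96, -3.23 and -0.94. The part of these markers in the differences was not tested. With the animal as a block, 0 members were called.

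**Figure D4:**
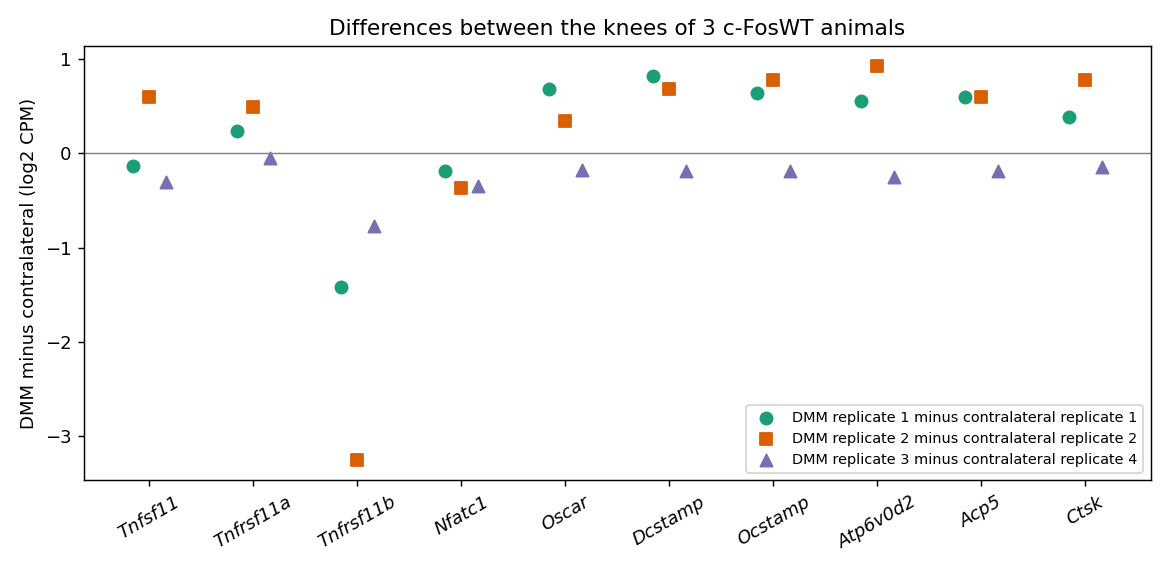
DMM minus contralateral knee of the same c-FosWT animal, as a difference in log2 CPM (vertical axis), for the 10 genes; symbols mark the 3 animals. Tnfrsf11b and Nfatc1 lie below 0 in all 3 animals, and the 6 osteoclast genes on the right lie above 0 in the animals of DMM replicates 1 and 2 and below 0 in that of DMM replicate 3.

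Set against contralateral c-FosWT knees, c-FosDCh DMM knees again had low values of osteoclast genes, but the comparison passed for no gene by edgeR. Genotype and surgery differ together here. Of all genes, 0% were called (lowest adjusted p = 0.584; 1512 genes had an unadjusted p under 0.05), DESeq2 called 0 members and limma 0. An unadjusted p under 0.05 was reached by 5 members, Oscar, Acp5, Ocstamp, Dcstamp and Atp6v0d2. Oscar was at 4.45, 6.97, 3.07 and 3.65 CPM in c-FosDCh DMM knees and at 7.33, 7.35, 11.8 and 9.52 CPM in contralateral knees, and Acp5 at 391, 463, 267 and 170 CPM in c-FosDCh DMM knees against 547, 473, 822 and 668 CPM in contralateral knees. These 2 members lay wholly below, which 2.12% of all genes did, though by a narrow gap in each case. Their log2 fold changes were -0.99 ± 0.27 and -0.96 ± 0.30.

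The other members overlapped in that comparison. Log2 fold changes were -1.09 ± 0.35 for Ocstamp, -0.85 ± 0.33 for Atp6v0d2, -0.74 ± 0.28 for Dcstamp, -0.71 ± 0.33 for Tnfrsf11a and -0.64 ± 0.32 for Ctsk. Tnfrsf11b had 1.08 ± 0.56, with the c-FosDCh DMM replicates 1 and 2 at 237 and 234 CPM inside the contralateral range of 127 to 352 CPM and replicates 3 and 4 above it. Nfatc1 had 0.07 ± 0.11 and Tnfsf11 had -0.33 ± 0.39. In the pathway lists 0 genes were called. The genes with the smallest p were Ikbkb (log2 fold change 0.31) and Ppp3ca (0.39), Csf1 (-0.62) and Csf1r (-0.75), Siglec15 (-0.66) and Fcer1g (-0.85), Mmp9 (-0.74) and Snx10 (-0.47), Bcl6 (0.69) and Nfkbia (0.19), and Il11 (1.95) and Vdr (-1.0). Macrophage markers summed to between 73.1 and 357 CPM in c-FosDCh DMM knees and to between 294 and 433 CPM in contralateral knees, all 8 tested with negative log2 fold changes and 0 called.

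The balance of ligand and decoy within a library, the log2 CPM of Tnfsf11 minus that of Tnfrsf11b, followed OPG rather than RANKL. It was -5.35, -4.51, -7.22 and -8.14 in c-FosDCh DMM knees, -3.52, -2.0 and -3.67 in c-FosWT DMM knees, and -4.80, -5.85, -5.25 and -4.13 in contralateral knees. The c-FosWT DMM values lay above all others, and the c-FosDCh and contralateral values overlapped. The means were -6.30 ± 1.67, -3.07 ± 0.92 and -5.01 ± 0.72 (SD) in c-FosDCh DMM, c-FosWT DMM and contralateral knees. The difference of c-FosDCh DMM minus c-FosWT DMM was -3.24 (exact two-sided permutation test over 35 splits, p = 0.0571, adjusted over 3 comparisons 0.0857), and that of c-FosWT DMM minus contralateral was 1.94 (p = 0.0571, adjusted 0.0857, same exact test). The smallest p that 35 splits can give is 0.0286. The splits of c-FosWT DMM and contralateral libraries took no account of the animals shared between these groups, so that p is approximate. For c-FosDCh DMM minus contralateral the difference was -1.29 (exact permutation test over 70 splits, p = 0.257, adjusted 0.257). Within animals, DMM minus contralateral differences of this ratio were 1.28, 3.85 and 0.46, positive in 3 of 3, with an exact sign-flip p of 0.25, the smallest that 3 pairs allow.

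**Figure D5:**
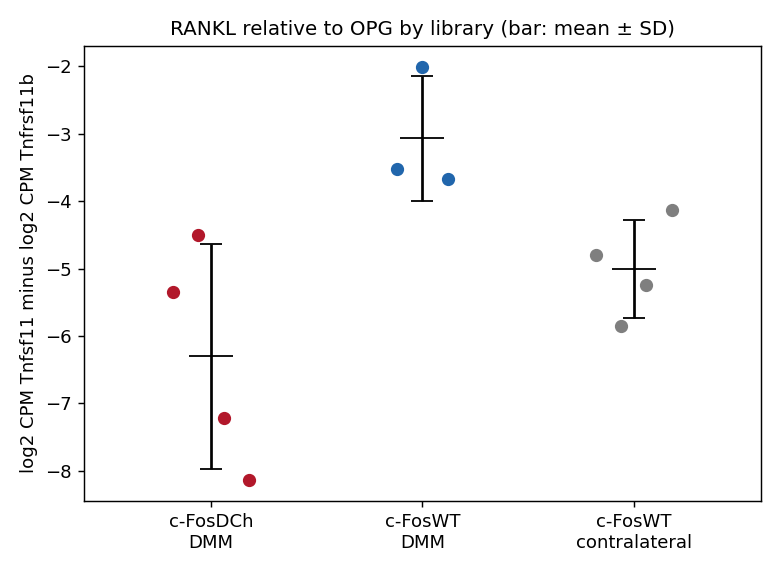
RANKL relative to OPG in each library, as log2 CPM of Tnfsf11 minus log2 CPM of Tnfrsf11b (vertical axis); points are libraries ordered by replicate number and bars are group means ± SD. The 3 c-FosWT DMM libraries, between -3.67 and -2.0, are the highest, and c-FosDCh DMM replicates 3 and 4, at -7.22 and -8.14, are the lowest.

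Across the 11 libraries the 6 osteoclast genes from Oscar to Ctsk varied as one. Their 15 pairwise Pearson correlations of log2 CPM lay between 0.87 and 0.98, and between 0.72 and 0.98 after group means were removed. These points share tissue composition and library, and genes of 1 cell type share its abundance. Tnfrsf11b correlated with Nfatc1 at 0.94 and with the marrow score at -0.85. Tnfrsf11a correlated with macrophage markers at 0.96 and with endothelial markers at 0.98. Tnfsf11 correlated with the osteoclast genes at 0.66 (Oscar) to 0.79 (Ctsk) and with Tnfrsf11b at -0.29.

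The genes most like a member over the 11 libraries were sought among 12640 genes that averaged at least 1 log2 CPM. Closest to Ctsk were Slc9b2 (0.99), Atp6v0d2 (0.98), Slit2 (0.98), Prdm1 (0.97) and S1pr3 (0.97), of which Prdm1 encodes the repressor Blimp1. Closest to Tnfrsf11b were Smoc2, Cilp, Meltf, Hhipl2 and Rasgef1a, at 0.99 to 1.00, of which Cilp encodes a protein of the cartilage matrix. Closest to Tnfsf11 were Clns1a (0.90), Olfml3 (0.87), Galnt3 (0.87), C1qtnf6 (0.86) and Lhpp (0.84), so no gene followed RANKL as closely as those named followed Ctsk or OPG. Tnfsf11 had only 41 to 175 counts per library, against 2862 to 15787 for Ctsk and 395 to 11980 for Tnfrsf11b. The part of counting noise in its lower correlations was not tested.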

How the data were processed

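RNA of 11 mouse knee cartilage samples was analysed. Directional libraries were made from poly(A) RNA of scalpel-dissected cartilage, per the labels' protocols. The submitters' processing notes name STAR 2.6.1a, bcl2fastq 2.19.1.403, DESeq2 1.22.2, RSEM and build GRCm38, without the annotation release or strand setting. The authors deposited a file of raw gene counts for each library; its unmapped, multimapping, no-feature and ambiguous read classes were left out, so that gene counts made up 33.1 to 43.2% of the reads listed.

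Symbols and exon lengths came from GENCODE M21 (GRCm38), which matched 55240 of 55421 identifiers. Tests used edgeR 4.0.16 in R 4.3.3. In all, 18125 genes passed filterByExpr, libraries were scaled by TMM, and 1 quasi-likelihood model with group as its term was fitted to all 11 libraries. Genes were called at a Benjamini-Hochberg adjusted p under 0.05. SE was obtained from the log2 fold change and its F statistic. Log2 CPM used a prior count of 2. The common biological coefficient of variation was 0.315. The procedure was tested on simulated data. Alternatives used DESeq2 1.42.0 and limma 3.58.1 (voom), other scalings and filters, marker scores as covariates, the animal as a block, and each library left out; files were read with data.table version 1.17.8, and figures were drawn with Python 3.11.15, pandas 2.3.3 and matplotlib 3.10.9.

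Replicates are separate knees; pairs of libraries in a group differed by more than counting noise (lowest chi-square per degree of freedom 31.03 over genes with at least 20 counts). The c-FosDCh replicates were numbered by accession order, since 2 share a number in the labels. The knees of an animal were paired by the animal named in their titles. Deviations from group means correlated at -0.17, -0.18 and 0.25 within the 3 pairs. Between DMM and contralateral libraries of different c-FosWT animals they correlated at -0.49 to 0.52, so these values do not tell pairs from other libraries. The members, the pathway lists and the marker lists were chosen with earlier results of these data known. All 10 members are named; of each pathway list, up to 4 called genes by smallest p, or 2 where none was called; and the 5 closest neighbours of Ctsk, Tnfsf11 and Tnfrsf11b. The lists were RANK signalling, CSF1 axis, ITAM costimulation, resorption machinery, inhibitors of osteoclast formation and inducers of RANKL.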

Additional observations from a re-analysis of the deposited data

How the results depend on the processing

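The 6 members called between c-FosDCh DMM and c-FosWT DMM knees became 8 with DESeq2 and 3 with no filter on low counts (1443 genes), and 0 members and 0 genes were called with only the 2 groups compared, or with the marrow score as a covariate. Among alternatives chosen after seeing the data, 0 members and 0 genes were called without the muscle-rich libraries (c-FosWT DMM replicate 1 and contralateral replicate 2), without c-FosDCh replicates 3 and 4, and with the macrophage or the cartilage score as a covariate; the cause was not tested. DESeq2 called 5358 genes in this comparison, 884 genes and 1 member between c-FosWT DMM and contralateral knees, and 41 genes and 0 members between c-FosDCh DMM and contralateral knees. Leaving out 1 library at a time gave 0 to 4626 genes and 0 to 8 members between the DMM groups, with 0 members in 6 of 11 cases, and 0 to 1 gene between c-FosDCh DMM and contralateral knees. Library totals without TMM moved the median of all genes by -0.17 between the DMM groups and called 2157 genes, 54.5% of them higher, against 2616 genes and 73.7% with TMM; upper quartile scaling called 2845, 77.9% higher. The ratio of Tnfsf11 to Tnfrsf11b ranged from -3.83 to -2.63 (c-FosDCh DMM minus c-FosWT DMM), from 1.41 to 2.25 (c-FosWT DMM minus contralateral) and from -1.89 to -0.68 (c-FosDCh DMM minus contralateral) with 1 library left out. The replicate block (the animal, 3 pairs) changed no call: it called 0 members and 0 genes.

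Log2 fold changes that changed sign were all of values that were not called. Between the DMM groups Tnfsf11 was 0.39 with the marrow score, 0.44 with the macrophage score, between -0.61 and 0.013 with 1 library left out (the highest without c-FosDCh replicate 4) and 0.29 without c-FosDCh replicates 3 and 4. Between c-FosDCh DMM and contralateral knees Nfatc1 was -0.10 without TMM, -0.012 with the marrow score, -0.052 without c-FosDCh replicates 3 and 4 and -0.10 with the macrophage score; Tnfsf11 was 0.16 without c-FosDCh replicates 3 and 4 and 0.15 with the macrophage score, and Tnfrsf11b was -0.24 with the macrophage score. Between c-FosWT DMM and contralateral knees the marrow score gave -0.36 for Tnfrsf11a, -0.15 for Ocstamp, -0.10 for Atp6v0d2, -0.044 for Oscar, -0.20 for Acp5 and -0.24 for Ctsk; leaving out the muscle-rich libraries gave -0.17 for Ocstamp, -0.0038 for Atp6v0d2, -0.079 for Oscar, -0.031 for Acp5 and -0.041 for Ctsk. Tnfsf11 was 0.13 with the osteoblast score and 0.049 with the replicate block, Tnfrsf11a was -0.0029 with the macrophage score and -0.10 with the cartilage score, and Ctsk was -0.011 with the cartilage score. Of the remaining settings that left out no single library, 297 values kept their direction and side of the threshold, 40 lost a call and 7 gained one.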
